A study of Mus musculus with 6 samples.

Results

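The genes described here encode the MHC class I heavy chains of the H2-K and H2-D loci, their light chain, the proteins that load them with peptide, and the transcriptional activator Nlrc5. The members are a list of names, and all 10 were found among the 54532 gene identifiers of the count table. The comparison was of 3 libraries whose genotype label is Rfx1 overexpression with 3 negative control libraries. Rfx1 encodes a DNA-binding protein of the RFX family. All 6 libraries came from total RNA of cultured mouse peritoneal macrophages, phagocytes of the abdominal cavity that the labels call PMAs, grown in DMEM with fetal bovine serum and antibiotics, and were built with a stranded mRNA kit. No strain, age, sex, vector or treatment time is given. Nothing states that replicates were independent animals or dishes, and p-values therefore measure no more than the spread among these libraries, which may be technical. Class I genes are highly polymorphic between mouse strains, and the counts were made on the reference genome alone.

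MHC class I molecules show peptides from inside the cell to CD8 T cells. Proteasomes cut proteins into peptides, the TAP transporter carries these into the endoplasmic reticulum, aminopeptidases trim them there, and a loading complex of tapasin, calreticulin and Pdia3 holds the empty class I molecule at the transporter until a peptide binds. Transcription of the heavy chain genes and of B2m is known to depend on an upstream SXY module bound by Nlrc5 together with Rfx5, Rfxap and Rfxank, and to be raised by interferon and NF-kB signals; macrophages express class I at rest and more of it when activated. Rfx1 itself is not a known part of that complex.

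Values are CPM, read counts normalised to library sizes that were scaled by the trimmed mean of M-values (TMM). Libraries held 16461277 to 18795575 counts. Changes are log2 differences, overexpression minus control, with their standard error (SE). Adjusted p-values come from the quasi-likelihood test of edgeR, were Benjamini-Hochberg corrected over 13454 tested genes, and passed at 0.05. All 10 members had enough counts to be tested.

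The labels were checked first. Rfx1 measured 57.6, 10.97 and 14.8 CPM in controls 1, 2 and 3, against 40.8, 36.4 and 23.2 CPM in overexpression 1, 2 and 3, with the highest value in a library labelled as a control (log2 difference 0.27, edgeR adjusted p = 0.80). Without control 1 Rfx1 passed (adjusted p = 0.024). Directions below therefore rest on the labels. Of 10 macrophage markers, all tested, 3 rose and none fell, beside 6.9% of all tested genes risen and 5.97% fallen. Those that rose were Cd14 (log2 change 3.88, edgeR adjusted p = 0.0011), Itgam (0.97, 0.026) and Adgre1 (1.37, 0.024). Itgam was lost without control 2, control 3, overexpression 1 or overexpression 2 (0.10, 0.14, 0.052 and 0.11), and with library size only (0.069). Adgre1 was lost without control 2, control 3 or overexpression 2 (0.088, 0.085 and 0.086), and with library size only (0.064). Lgals3 (-0.88, adjusted p = 0.088) and Mpeg1 (-0.56, 0.22) did not pass, with every overexpression library below every control. Cd68, Csf1r and Adgre1 had at least 154 CPM in every library. The macrophage lysozyme gene Lyz2 was not evenly present: it had 15672 to 38702 CPM in the controls and 29281 CPM in overexpression 3, but 44.7 and 40.8 CPM in overexpression 1 and 2. Within their label, overexpression 1 was highest in 6 and overexpression 2 in 4 of the 10 class I members, while overexpression 3 was lowest in 9. Among the controls, library 1 was highest in 8 members. The part of these library differences in the results was not tested, and each result is given by library below.

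Of the 10 class I members 6 rose in the libraries labelled as overexpressing Rfx1, a count that came to 0 to 2 when control 2, control 3, overexpression 1 or overexpression 2 was left out. H2-K1, B2m, Tap1, Tap2, Tapbp and Tapbpl were those that rose, none of the 10 fell, and H2-D1, Erap1, Pdia3 and Nlrc5 did not pass the test. Of all genes tested, 6.9% were called as risen and 5.97% as fallen. The median log2 difference was 1.63 over the 10 members and -0.01 over all tested genes. In 7 members every overexpression library lay above every control, which was so for 16.3% of all tested genes. In bulk RNA, more cells of a type and more RNA per cell cannot be told apart.

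**Figure D1:**
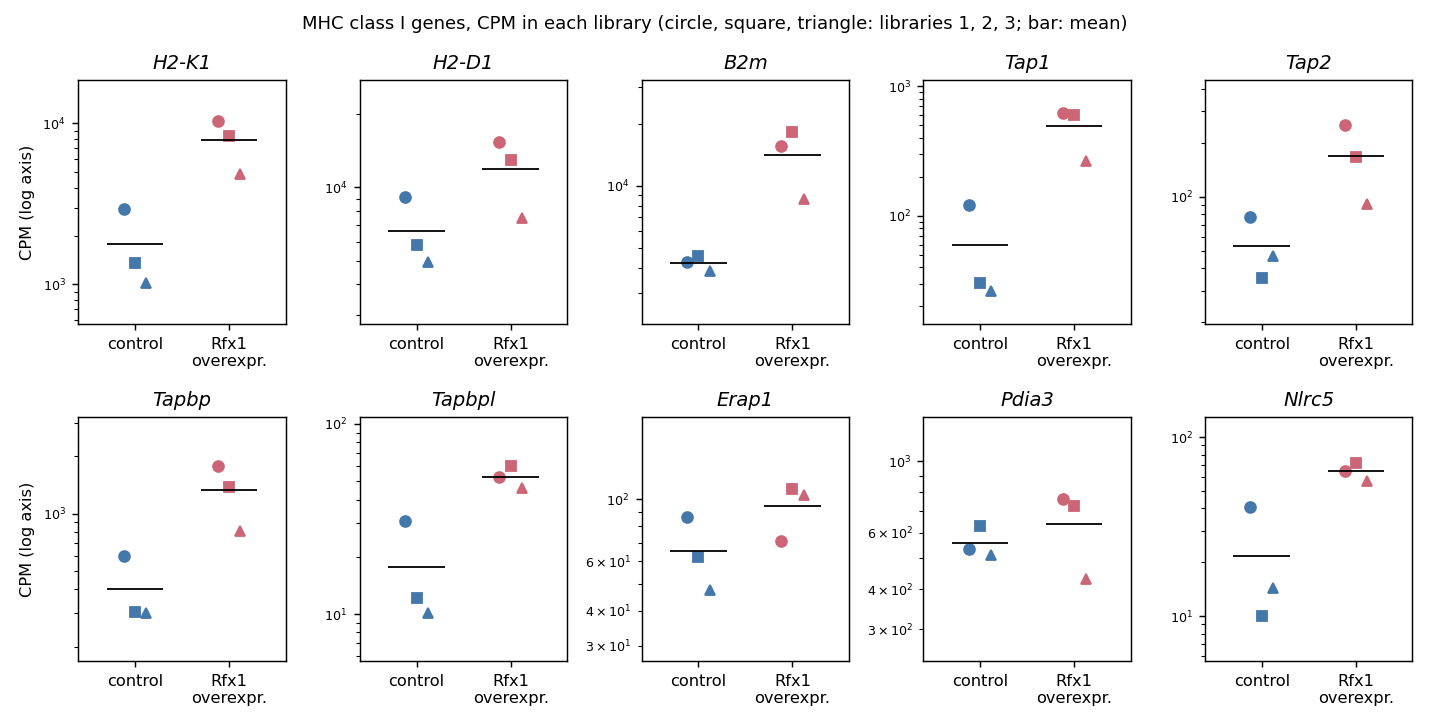
CPM of each of the 10 class I genes on a log axis, 1 point per library, with the group mean as a bar; circles, squares and triangles are libraries 1, 2 and 3 of each group. Control 1 was the highest control for 8 genes and overexpression 3 the lowest overexpression library for 9, and the groups stayed apart for 7 genes.

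H2-K1 and H2-D1 encode the classical class I heavy chains, which bind the peptide and are recognised by the T cell receptor. H2-K1 (ENSMUSG00000061232) lies on chromosome 17, positions 33996017 to 34000347 of mm10, on the - strand. It had 2937, 1361 and 1022 CPM in controls 1, 2 and 3 and 10386, 8412 and 4870 CPM in overexpression 1, 2 and 3. The groups did not overlap, with overexpression 3 and control 1 nearest each other. H2-K1 rose 4.45-fold, from 1774 ± 1022 to 7890 ± 2795 CPM (SD, n = 3), a log2 change of 2.15 ± 0.46 SE (edgeR adjusted p = 0.015).

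H2-D1 (ENSMUSG00000073411) lies on the + strand of the same chromosome, positions 35262730 to 35267499. It had 9152, 5791 and 4956 CPM across controls 1 to 3, against 15343, 12959 and 7479 CPM across overexpression 1 to 3. The groups overlapped, because control 1 lay above overexpression 3. Its log2 difference of 0.85 ± 0.38 SE did not pass (edgeR adjusted p = 0.17), but did without overexpression 3, at 1.09 (adjusted p = 0.038); over all 16 alternatives its adjusted p ran from 0.0014 to 0.90.

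These 2 genes resemble each other and the H2-Q and H2-T genes of the same region, so reads could be shared between them. Of 50-base windows of the longest H2-K1 transcript, 8.11% also occurred in a transcript of another gene, most often H2-D1. For H2-D1 the share was 14.3%, most often with H2-Q1. At 100 bases it was 0% for H2-K1 and 4.64% for H2-D1. The sum of 17 H2-K, H2-D, H2-Q and H2-T genes does not depend on how counted reads were divided among them. Reads left uncounted because they match several genes would be missing from it, which was not checked. The sum had 13757, 8240 and 7058 CPM across controls 1 to 3, against 32122, 26346 and 14450 CPM across overexpression 1 to 3. Every overexpression library lay above every control in this sum, though overexpression 3 exceeded control 1 by little. Tested as 1 feature it did not pass, with a log2 difference of 1.33 ± 0.41 SE (edgeR adjusted p = 0.061), in a fit that called 6.88% of features as risen and 6.0% as fallen.

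The upstream sequences of the heavy chain genes and B2m are shown because these members share a regulatory module that Nlrc5 is known to use. They are 300-base RefSeq windows on GRCm38.p6, which is mm10, running from 250 bases before to 50 after each annotated start, 5′ to 3′ on the gene's own strand. H2-K1 is at chr17:34000298-34000597 (- strand), H2-D1 at chr17:35262844-35263143 (+ strand) and B2m at chr2:122147437-122147736 (+ strand). Capitals mark, in order, a kB motif, an interferon response element, and the cores of the X2 box (TGACG) and the Y box (ATTGG). These cores belong to the SXY module. The kB motif was searched in a fixed form, marked here in the heavy chain genes, and other forms were not looked for in any window. In the heavy chain genes the interferon response element is in its class I form. In B2m it is in its general form, read on the other strand.
H2-K1: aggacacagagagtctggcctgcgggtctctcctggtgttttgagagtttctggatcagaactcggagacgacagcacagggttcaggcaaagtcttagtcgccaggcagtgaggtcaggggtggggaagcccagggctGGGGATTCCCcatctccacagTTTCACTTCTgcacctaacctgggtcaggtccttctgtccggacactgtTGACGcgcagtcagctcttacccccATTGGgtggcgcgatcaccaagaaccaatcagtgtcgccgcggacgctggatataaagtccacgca
H2-D1: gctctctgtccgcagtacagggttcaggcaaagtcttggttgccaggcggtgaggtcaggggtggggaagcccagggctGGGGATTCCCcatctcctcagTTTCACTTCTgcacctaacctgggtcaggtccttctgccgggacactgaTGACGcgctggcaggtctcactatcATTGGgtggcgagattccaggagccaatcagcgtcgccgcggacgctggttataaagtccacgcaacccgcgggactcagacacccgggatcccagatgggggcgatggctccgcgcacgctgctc
B2m: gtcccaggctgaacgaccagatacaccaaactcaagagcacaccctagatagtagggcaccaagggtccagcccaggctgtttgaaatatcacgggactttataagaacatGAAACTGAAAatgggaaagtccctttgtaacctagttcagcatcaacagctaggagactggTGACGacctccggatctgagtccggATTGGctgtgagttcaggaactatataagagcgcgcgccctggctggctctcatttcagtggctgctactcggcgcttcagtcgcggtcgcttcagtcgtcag

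In all 3 windows exactly 20 bases separated the X2 core from the Y core on the gene's strand. The pair began at -41 in H2-K1, -101 in H2-D1 and -78 in B2m, counting the annotated start as 0. The H2-K1 and H2-D1 windows were identical at 214 of 239 aligned bases (89.5%), a share that leaves out 122 gap bases. The elements lay farther from the annotated start in H2-D1. Both windows hold the stretch tataaagtccacgca, after the annotated start in H2-K1 and before it in H2-D1. The shift therefore goes with where the starts are annotated and shows no different layout of the elements. Windows were available for 7 members, and the X2-Y pair was not found in those of Tap1, Tapbp, Erap1 and Pdia3. Of 32851 windows of all genes, searched on both strands, 31 (0.0944%) held the pair, in windows of 27 genes. The spacing was read from the class I windows themselves, so its rarity elsewhere describes the module and tests nothing.

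Genes with the pair differed in their calls. Of the 27, 3 rose, 1 fell, 16 did not pass, 5 had too few counts and 2 were not matched in the count table by symbol. Of all tested genes 6.9% rose and 5.97% fell. The risen genes were H2-K1, B2m and the clock gene Per1, and the fallen gene was Tecpr1. H2-K1 and B2m are among the genes whose windows gave the spacing, so the count tests nothing about the pair. H2-D1 and the class Ib gene H2-M3 (log2 difference 0.94 ± 0.32 SE, edgeR adjusted p = 0.082) did not pass. The kB motif, in the fixed form searched, was found in 2 of the 7 member windows and in 1.75% of all windows. Other forms of kB site were not searched, so these counts do not show that the remaining windows, B2m's included, lack one. The general form of the interferon response element was found in 2 member windows, those of B2m and Erap1, and in 3.44% of all. Its class I form was found in 2, those of H2-K1 and H2-D1, and in 0.155% of all. The short cores were common, with TGACG in 20.8% and ATTGG in 37.4% of all windows.

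**Figure D2:**
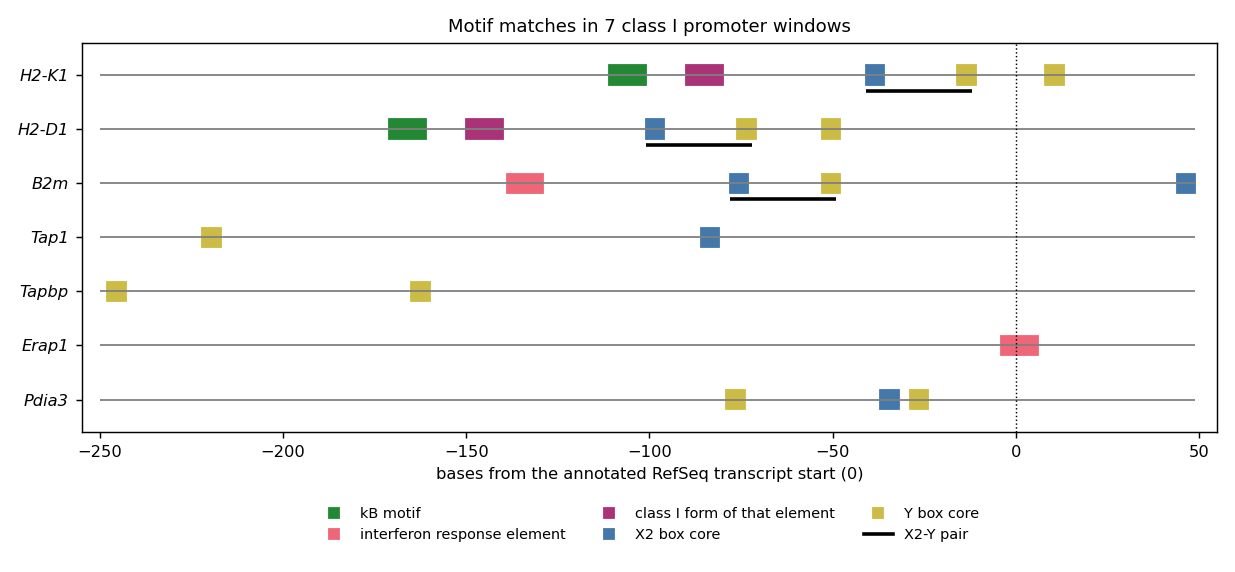
Motif matches on either strand in the 300-base windows of 7 class I genes, plotted as bases from the annotated RefSeq start; the black line marks an X2 and a Y core separated by 20 bases. H2-K1, H2-D1 and B2m hold the pair, and the other 4 do not.

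B2m (ENSMUSG00000060802, chromosome 2, positions 122147686 to 122153083, + strand) encodes beta-2-microglobulin, the light chain that every classical heavy chain needs to fold and reach the surface. It had 4263, 4569 and 3831 CPM across controls 1 to 3, against 15638, 18119 and 8596 CPM across overexpression 1 to 3. The controls lay close together and every overexpression library lay above all of them. B2m rose 3.34-fold, from 4221 ± 371 to 14118 ± 4941 CPM (log2 change 1.74 ± 0.35 SE, edgeR adjusted p = 0.011). It had the smallest p of the members.

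The level of H2-K1 relative to H2-D1 did not overlap between the groups. Levels of different genes were compared as CPM per kilobase of merged exons, and ratios within a library do not depend on how libraries were scaled to each other. H2-K1 stood at 0.282, 0.206 and 0.181 of H2-D1 in controls 1, 2 and 3 and at 0.594, 0.570 and 0.572 in overexpression 1, 2 and 3. The overexpression libraries, including library 3, lay close together and well above every control. The mean log2 ratio was higher by 1.40, and a 2-sided exact permutation test over libraries gave p = 0.1, the smallest that 3 against 3 libraries allow (0.13 adjusted over the 10 ratios computed). The ratio of B2m to the sum of both heavy chains was 1.09, 1.96 and 1.96 in the controls and 1.92, 2.67 and 2.19 with overexpression. That ratio overlapped between groups (exact permutation p = 0.3).

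Tap1 and Tap2 encode the subunits of the peptide transporter, which works only as a heterodimer. Tap1 (ENSMUSG00000037321, chromosome 17, positions 34187553 to 34197225, + strand) had 121, 30.5 and 26.3 CPM across controls 1 to 3, against 622, 603 and 265 CPM across overexpression 1 to 3. Control 1 held several times the level of the other controls but lay below every overexpression library. Tap1 rose 8.39-fold, from 59.2 ± 53.4 to 497 ± 201 CPM (log2 change 3.07 ± 0.64 SE, edgeR adjusted p = 0.016), the largest change among the members. Its exons overlap those of the proteasome gene Psmb9 on the opposite strand by 212 bases, 3.87% of its exon bases.

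Tap2 (ENSMUSG00000024339, chromosome 17, positions 34203527 to 34216321, + strand) had 77.3, 35.1 and 46.6 CPM across controls 1 to 3, against 250.4, 166 and 91.0 CPM across overexpression 1 to 3. The groups did not overlap, though overexpression 3 lay just above control 1. Tap2 rose from 53.0 ± 21.8 to 169 ± 79.8 CPM (log2 change 1.67 ± 0.40 SE, edgeR adjusted p = 0.024). Antisense transcripts Gm15821 and Gm20496 share 533 and 165 of its exon bases, and the strand setting of the counting is not given in the sources used here.

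Per kilobase, Tap1 stood at 1.08, 0.599 and 0.391 of Tap2 in controls 1, 2 and 3 and at 1.72, 2.50 and 2.01 in overexpression 1, 2 and 3. The groups did not overlap (difference in mean log2 ratio 1.70, exact permutation p = 0.1, the smallest possible). Tap1 was also higher relative to Psmb9, with which it shares a start region: 1.37, 0.652 and 0.861 in the controls against 2.02, 3.05 and 2.56 (exact permutation p = 0.1).

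Tapbp and Tapbpl encode peptide editors. Tapbp (tapasin, ENSMUSG00000024308, chromosome 17, positions 33915899 to 33929292, + strand) bridges the class I molecule to the transporter. It had 600, 305 and 301 CPM across controls 1 to 3, against 1783, 1382 and 809 CPM across overexpression 1 to 3. The groups did not overlap and tapasin rose from 402 ± 171 to 1325 ± 490 CPM (log2 change 1.72 ± 0.39 SE, edgeR adjusted p = 0.018). An antisense gene, Gm19412, shares 904 of its exon bases (24.9%).

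Tapbpl (TAPBPR, ENSMUSG00000038213, chromosome 6, positions 125223933 to 125231860, - strand) edits peptides outside the loading complex. It had 30.8, 12.1 and 10.14 CPM across controls 1 to 3, against 52.3, 60.3 and 45.9 CPM across overexpression 1 to 3. Overexpression 3 was closer to libraries 1 and 2 here than for tapasin. Tapbpl rose from 17.7 ± 11.4 to 52.8 ± 7.197 CPM (log2 change 1.58 ± 0.39 SE, edgeR adjusted p = 0.027). Relative to Tapbp its level per kilobase was 0.0452 to 0.0876 with overexpression and 0.0519 to 0.0792 in the controls, and the groups overlapped (exact permutation p = 1).

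Erap1 and Pdia3, whose products trim peptides and assist folding of the heavy chain, did not pass. Erap1 (ENSMUSG00000021583, chromosome 13, positions 74639568 to 74693201, + strand), the aminopeptidase of the endoplasmic reticulum, had 86.6, 62.4 and 47.4 CPM across controls 1 to 3, against 70.9, 109 and 104 CPM across overexpression 1 to 3. The groups overlapped, and here overexpression 1 was the lowest of its label (log2 difference 0.53 ± 0.27 SE, edgeR adjusted p = 0.24). Cast, on the opposite strand, shares 834 of its exon bases (11.5%). Pdia3 (ERp57, ENSMUSG00000027248, chromosome 2, positions 121413775 to 121438687, + strand), a thiol oxidoreductase that acts on many glycoproteins besides class I, had 535, 630 and 511 CPM across controls 1 to 3, against 762, 726 and 430 CPM across overexpression 1 to 3. Overexpression 3 was below every control, and the log2 difference was 0.19 ± 0.28 SE (edgeR adjusted p = 0.69). Its level per kilobase stood at 1.03, 2.39 and 1.96 of Tapbp in the controls and 0.494, 0.607 and 0.614 with overexpression. The groups did not overlap (exact permutation p = 0.1, or 0.13 adjusted over the 10 ratios), as in 8 of the 10 ratios. This ratio is not separate from the rise of Tapbp in the same libraries.

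Nlrc5 (ENSMUSG00000074151, chromosome 8, positions 94434356 to 94527272, + strand) encodes the class I transactivator, which binds no DNA by itself. It had 40.7, 10.06 and 14.3 CPM across controls 1 to 3, against 64.9, 72.1 and 56.9 CPM across overexpression 1 to 3. Every overexpression library lay above every control, with control 1 far above the other controls. The log2 difference of 1.57 ± 0.46 SE just missed the threshold (edgeR adjusted p = 0.056). It passed in 6 of the 16 alternatives, among them without control 1, at 2.40 (edgeR adjusted p = 9.1e-04), and with DESeq2 (adjusted p = 0.0020). With any other single library left out it did not pass (edgeR adjusted p = 0.092 to 0.15). Its adjusted p was lowest, at 3.3e-09, without control 1 and overexpression 3 together.

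Per kilobase of exon, B2m was the most abundant member in both groups, at 4908 ± 431 CPM per kilobase in the controls and 16416 ± 5745 with overexpression, and H2-D1 followed at 2572 ± 861 and 4625 ± 1564. H2-K1 came next at 604 ± 348 and 2685 ± 951. Pdia3 (178 ± 20.1) and Tapbp (111 ± 47.2) followed in the controls, and their order turned with overexpression, to 204 ± 58.1 for Pdia3 and 365 ± 135 for Tapbp. Tap2, Tap1, Erap1 and Tapbpl lay between 14.0 and 7.51 CPM per kilobase in the controls, within each other's spread, and Nlrc5 was lowest at 2.55 ± 1.95. With overexpression Tap1 (90.7 ± 36.7) and Tap2 (44.8 ± 21.1) lay above Tapbpl (22.5 ± 3.06), Erap1 (13.0 ± 2.85) and Nlrc5 (7.61 ± 0.894).

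**Figure D3:**
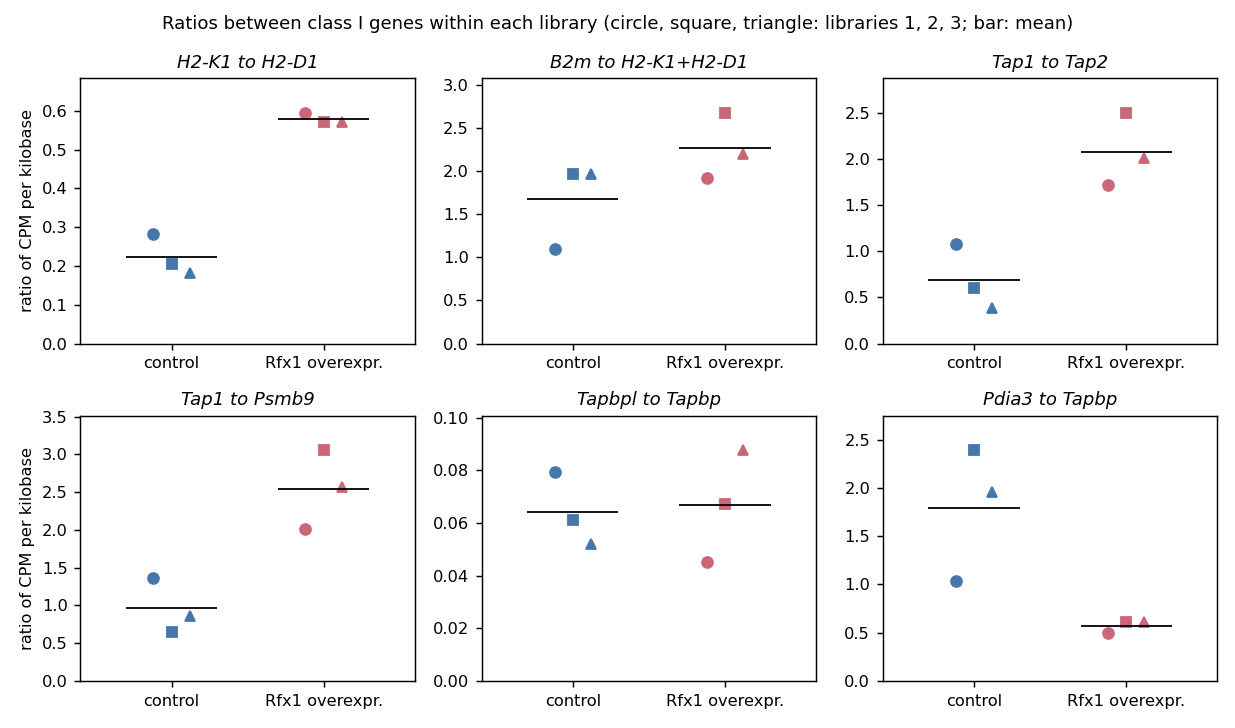
Ratios of CPM per kilobase between class I genes within each library, 1 point per library and the group mean as a bar. The H2-K1 to H2-D1 ratio was 0.181 to 0.282 in the controls and 0.570 to 0.594 with overexpression, while the ratios of B2m to the heavy chains and of Tapbpl to Tapbp overlapped.

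How many members passed depended on single libraries. Of the 10, 7 rose without control 1 (in that fit 6.13% of all tested genes rose and 5.61% fell) and 7 without overexpression 3 (11.8% and 12.8%). Only Tap1 rose without control 3 (3.79% and 2.78%) and without overexpression 2 (3.32% and 1.8%), H2-K1 and B2m rose without overexpression 1 (5.2% and 3.45%), and 0 members rose without control 2. Without control 2, edgeR adjusted p-values of the 6 risen members were 0.059 (Tap1) to 0.12 (Tapbpl), and that fit called 3.26% of all tested genes as risen and 2.01% as fallen. Under each of these left-out libraries all 10 log2 differences stayed above 0; those of the 6 risen members ranged from 1.29 to 4.13. In a further fit, added once the Lyz2 values were known, overexpression 3 alone was set against the controls and assumed to vary like them. No member then passed with edgeR (1.78% of all tested genes were called as risen and 0.593% as fallen), though 9 log2 differences were positive, among them 2.17 for Tap1, 1.47 for H2-K1 and 1.03 for B2m. Pdia3 was at -0.37. With control 1 and overexpression 3 both left out, 8 members rose, beside 14.0% of all genes risen and 14.8% fallen.

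Other tools and settings gave 5 to 9 risen members, and no fallen ones, to be read against the shares of all genes that rose and fell in the same fit. There were 6 with RLE factors (6.97% and 5.95% of all genes) and 6 with upper-quartile factors (6.37% and 6.67%). Library size only gave 5 (4.82% and 6.76%), and at least 10 counts in 3 libraries 6 (6.87% and 5.96%). DESeq2 gave 7 (8.33% and 7.8%) and the absence of a filter 7 (6.14% and 6.15%). The replicate number as a block gave 7 (7.11% and 7.02%) and limma-voom 9 (18.2% and 19.8%). At an adjusted p of 0.01 there were 0, beside 3.13% and 1.86% of all genes.

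**Figure D4:**
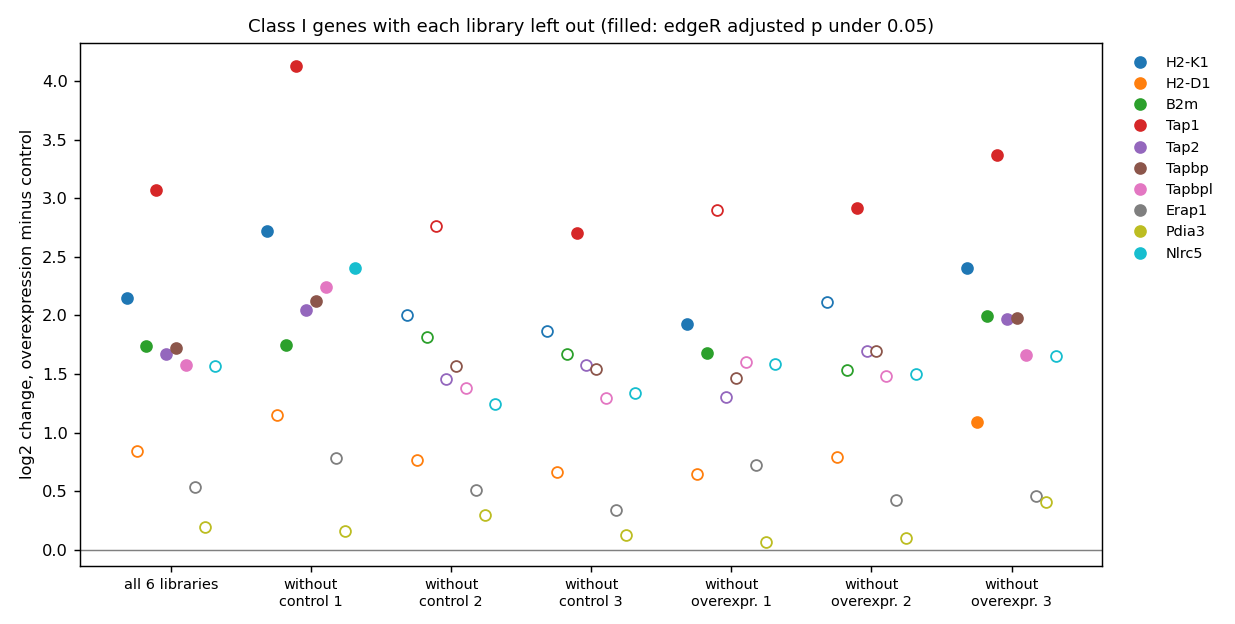
Log2 difference of each class I gene with all 6 libraries and with each library left out, filled where the edgeR adjusted p was under 0.05. All points lie above 0, and no point is filled without control 2.

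Genes that supply peptides to the pathway were counted from a list of 18, of which 17 were in the table and tested. Of these 4 rose, none fell and 13 did not pass, beside 6.9% of all tested genes risen and 5.97% fallen. The median log2 difference was 0.29, against -0.01 over all tested genes. The proteasome activator subunits Psme1 and Psme2 rose by 1.64 ± 0.27 SE and 2.34 ± 0.40 SE on the log2 scale (edgeR adjusted p = 0.0051 and 0.0053), and both passed with any library left out. The immunoproteasome subunit Psmb8, whose gene lies between Tap1 and Tap2, rose by 1.98 ± 0.43 SE (adjusted p = 0.016, lost without control 2 or 3, at 0.081 and 0.055). Psmb9 rose by 1.88 ± 0.47 SE (adjusted p = 0.032) but did not pass without control 2, control 3, overexpression 1 or overexpression 2 (0.12, 0.076, 0.10 and 0.085), nor with library size as the only scaling (0.052). The third immunoproteasome subunit gene, Psmb10, did not pass (log2 difference 1.10 ± 0.36 SE, adjusted p = 0.078), and its groups overlapped.

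The folding machinery of the endoplasmic reticulum, of which Pdia3 is part, was counted from 20 genes, all tested, of which 1 rose and none fell, beside 6.9% and 5.97% of all tested genes. The gene was Ero1l, which rose from 80.5 ± 24.4 to 561 ± 81.3 CPM (log2 change 2.80 ± 0.28 SE, edgeR adjusted p = 4.4e-04). Ero1l encodes an oxidase that recharges protein disulfide isomerases and is also known as a hypoxia-responsive gene. The lectin chaperones of class I assembly did not pass. Canx, which holds the new heavy chain, had 408, 466 and 391 CPM across controls 1 to 3, against 292, 399 and 346 CPM across overexpression 1 to 3 (adjusted p = 0.45). Calr, of the loading complex, had 692, 741 and 706 CPM against 900, 709 and 395 CPM (adjusted p = 0.87). The median log2 difference of the list was 0.07, and Calr per kilobase stood at 1.45 to 3.06 of Tapbp in the controls and 0.615 to 0.646 with overexpression.

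Regulators of class I transcription were counted from 25 genes, all tested, of which 8 rose, 1 fell and 16 did not pass, beside 6.9% of all tested genes risen and 5.97% fallen. The median log2 difference was 0.36. None of Rfx5, Rfxap and Rfxank, the RFX factors that work with Nlrc5, passed with edgeR. Rfx5 had 6.42, 4.63 and 4.799 CPM across controls 1 to 3, against 6.57, 12.5 and 9.56 CPM across overexpression 1 to 3 (log2 difference 0.85 ± 0.32 SE, edgeR adjusted p = 0.11), and it passed with limma-voom (adjusted p = 0.0031). Rfxap (-0.04 ± 0.26 SE, adjusted p = 0.94) and Rfxank (0.26 ± 0.29 SE, adjusted p = 0.61) differed by less than their error. Nfyc, a subunit of the factor that binds the Y box, decreased by 1.03 (log2; edgeR adjusted p = 0.032). Of the 6 left-out libraries that call held for overexpression 3, and the others gave 0.055 to 0.15.

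Some interferon signalling genes of the list rose, and others did not pass. The kinase gene Jak2 rose by 1.68 ± 0.21 SE on the log2 scale (edgeR adjusted p = 0.0013), the interferon receptor gene Ifnar2 by 1.598 ± 0.25 SE (0.0037), Stat2 by 1.85 ± 0.31 SE (0.0054) and the feedback inhibitor gene Socs1 by 4.69 ± 0.79 SE (0.0070). These 4 passed with any library left out. Irf1, which binds the interferon response element of class I genes, had 97.7, 28.4 and 19.96 CPM across controls 1 to 3, against 631, 602 and 177 CPM across overexpression 1 to 3. It rose by 3.27 ± 0.71 SE (adjusted p = 0.019), but not without control 2, overexpression 1 or overexpression 2 (0.071, 0.082 and 0.054). Further risen regulators included Irf8 (log2 change 1.999, adjusted p = 0.012) and the Y box factor subunit gene Nfyb (0.98, adjusted p = 0.029). Jak1 (log2 difference 0.11, edgeR adjusted p = 0.79), Tyk2 (-0.12, 0.76), Irf9 (0.58, 0.22) and Irf2 (0.67, 0.17) did not pass. Nor did Ifnar1 (0.62, 0.087) and Ifngr2 (0.35, 0.27), with every overexpression library above every control. Ifngr1 (-0.60, 0.090) did not pass either, with every overexpression library below every control.

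Interferon transcripts themselves were scarce. Ifng had 13, 0 and 0 counts in controls 1, 2 and 3 and 25, 30 and 1 in overexpression 1, 2 and 3 (edgeR adjusted p = 0.28). Ifnb1 had 0 counts in all 6 libraries, which allows up to 3 counts or 0.141 to 0.205 CPM per library, counting error only. The other type I and III interferon genes on the list, Ifna1, Ifna2, Ifna4, Ifna5, Ifne, Ifnl2 and Ifnl3, were also at 0, and Ifnk had 4 counts in overexpression 2 alone.

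Summed T cell and NK cell markers were highest in control 1 among the controls and lowest in overexpression 3 within its label. The summed level of 10 T cell genes was 43.4, 7.77 and 6.49 CPM in controls 1, 2 and 3 and 23.7, 21.9 and 6.20 CPM in overexpression 1, 2 and 3. For 9 NK cell genes it was 18.99, 3.14 and 1.42 CPM against 9.85, 8.10 and 4.19 CPM. None of the 7 T cell and 5 NK cell genes tested passed, and the groups overlapped in both sums. Summed B cell markers were 83.3 to 198 CPM in the controls and 39.6 to 109 CPM with overexpression, with none of 8 called. Of 8 neutrophil genes 4 were tested and 3 rose (Mmp8, S100a8 and Camp), beside 6.9% of all tested genes risen and 5.97% fallen. Camp had 0.59 to 2.81 CPM with overexpression and did not pass without control 2 (edgeR adjusted p = 0.052). Csf3r did not pass (log2 difference -0.38, adjusted p = 0.46). Among untested genes, every overexpression library lay above every control for S100a9 and Ngp, and below, at 0, for Cxcr2. The neutrophil sums were 47.7 to 80.0 against 227 to 628 CPM, while Ly6g, which defines neutrophils, was at 0 in all libraries. Of 8 dendritic cell genes 3 were tested and 2 rose (Ccr7 and Clec9a), with sums of 4.84 to 7.46 against 19.2 to 29.1 CPM and Siglech at 0. Ccr7 did not pass without control 2 (edgeR adjusted p = 0.052), and Zbtb46 did not pass (log2 difference -0.35, adjusted p = 0.68). Mesothelial markers summed to 28.2 to 175 CPM in the controls and 2.19 to 8.32 CPM with overexpression (5 of 7 tested fell), and fibroblast markers to 670 to 1700 and 287 to 807 CPM (3 of 8 fell). The dendritic cell, mesothelial and fibroblast counts stand beside the same shares of all tested genes. The macrophage list summed to 27758 to 51928 CPM in the controls and 13835 to 39950 CPM with overexpression, and without Lyz2 to 12086 to 13227 and 10669 to 14188 CPM. The part of these cells in the class I differences was not tested.

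Other class I-like heavy chains, most of which also pair with B2m, were counted from a list of 22. Of these 21 were in the table and 16 had enough counts, and 8 of the 16 rose and none fell, beside 6.9% and 5.97% of all tested genes (median log2 difference 1.28, against -0.01 over all tested genes). H2-M2 rose from 5.82 ± 1.31 to 220.1 ± 60.6 CPM (log2 change 5.24 ± 0.32 SE, edgeR adjusted p = 9.1e-05). Cd1d1, which presents lipids to NKT cells, rose by 4.31 ± 0.46 SE (adjusted p = 6.7e-04). Both passed with any library left out. H2-T22 and H2-T10, ligands of gamma-delta T cells, each rose by 1.79 on the log2 scale (SE 0.40 and 0.41, adjusted p = 0.017 and 0.019). Their calls were lost without control 2, control 3, overexpression 1 or overexpression 2. H2-T22 and H2-T10 are close relatives, so their division of reads is uncertain. H2-T24 (log2 difference -0.67, edgeR adjusted p = 0.13), Hfe (-0.90, 0.16) and Fcgrt (-0.36, 0.42) were lower but did not pass. For H2-T24 every overexpression library lay below every control. The list's other genes that did not pass had positive differences.

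**Figure D5:**
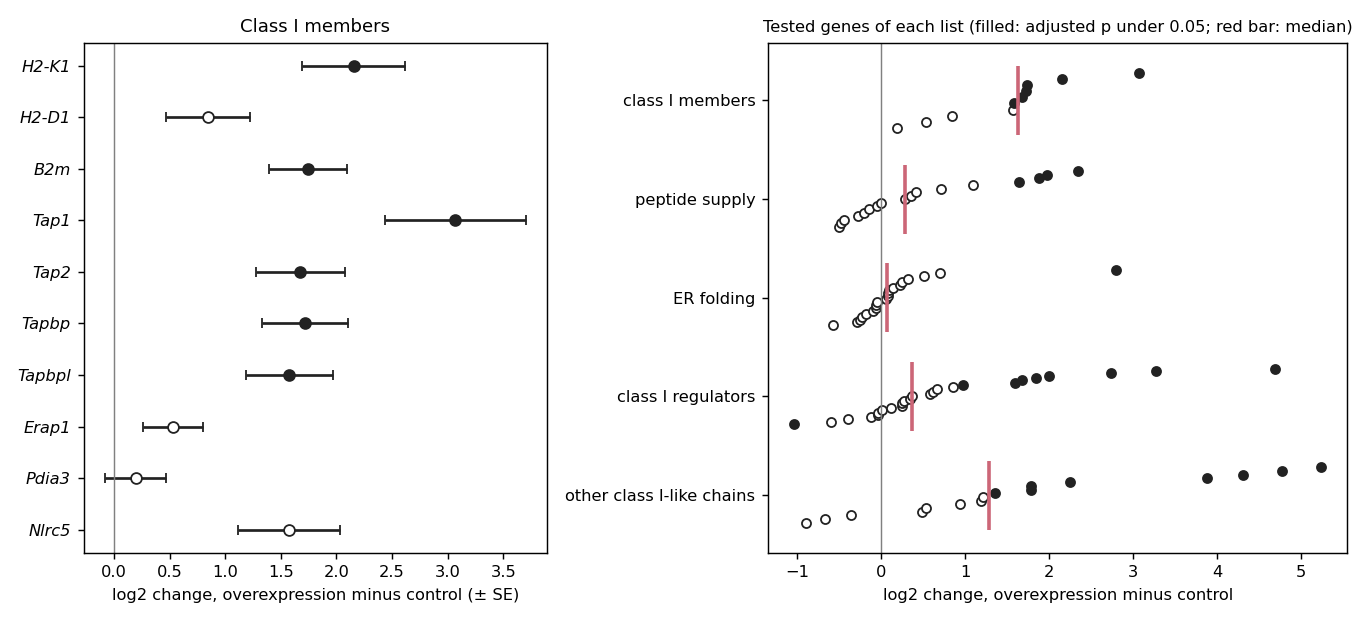
Left, log2 difference ± SE of the 10 class I members; right, log2 differences of all tested genes of each list, with the list's median as a red bar and filled points where the edgeR adjusted p was under 0.05. Members cluster between 1.57 and 3.07 except H2-D1, Erap1 and Pdia3, and the folding list centres near 0 apart from Ero1l.

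The genes whose pattern over the 6 libraries was most like that of a member were found by the root mean square difference of log2 CPM after centring each gene. For H2-K1 they were Oasl1 (0.17), Psmb9 (0.24) and Il2rg (0.24). For B2m they were Gde1 (0.09), Stx11 (0.12) and Pdpn (0.12). For Tap1 the nearest was Irf1 (0.22), followed by Gbp3 (0.24) and Cck (0.25), and for Nlrc5 Tmem178 (0.15), Tent5c (0.17) and the member Tapbpl (0.24). The measure covers 6 libraries that share a group difference, and many genes follow that difference.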

How the data were processed

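The authors deposited 1 table with unnormalised gene counts of all 6 libraries. Per the submitters' processing notes, featureCounts (1.5.0-p3), DESeq2 (1.20.0) and mm10 were used. Neither aligner, annotation nor strand setting is named in the labels, notes or header used here. Gene names and exons were looked up in GENCODE mouse release 21 (54495 identifiers found, 37 not), and promoter windows in RefSeq.

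The test was that of edgeR 4.0.16 (R 4.3.3), using TMM scaling, filterByExpr, a robust quasi-likelihood fit and group as the sole term. The filter removed 41078 genes. SE is the log2 change over the square root of F. The fit was checked on simulated data. Replicates were not duplicates of each other (chi-square per degree of freedom at least 40.5). A count of 0 was given a limit of 3 counts; this covers counting error only, since reads carried no molecular identifiers that the labels mention. Alternatives were other scalings, DESeq2 1.42.0, limma 3.58.1 voom with quality weights, other filters, a replicate block, a threshold of 0.01 and left-out libraries.

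Members, lists and tests were chosen with earlier results of these data known. Named were all members, Rfx1, up to 4 risen and 4 fallen genes of each list by smallest p, set regulators and interferons, and genes of most like pattern. Marker genes, Irf8, Nfyb, Per1, Tecpr1, H2-M3 and Psmb10 were named after their values were seen. So were Jak1, Tyk2, Irf9, Irf2, Ifnar1, Ifngr2, Ifngr1, H2-T24, Hfe and Fcgrt. A gene that the rule names is not reported here.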

Additional observations from a re-analysis of the deposited data

How the results depend on the processing

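The number of risen members was 5 to 9 under RLE, upper-quartile or library-size scaling, DESeq2, limma-voom, other filters on low counts and the replicate number as a block, against 6 as reported. Library size as the only scaling moved the median log2 difference of all genes to -0.20, against -0.01, and Tapbpl then did not pass (edgeR adjusted p = 0.077). At an adjusted p of 0.01, 0 members had risen. With 1 library left out 0 to 7 had, without control 1 and overexpression 3 together 8, and without overexpression 1 and 2, chosen after seeing the data, 0. No alternative had a fallen member. Pdia3 turned negative with library size only (-0.020) and without overexpression 1 and 2 (-0.37), and otherwise reached up to 0.41 (without overexpression 3); the other 9 members stayed positive in all 16 alternatives.

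Whether the replicate numbers pair the samples could not be decided with 3 libraries per group. Correlations of same-numbered deviations were 0.0941, 0.00531 and 0.327. The last was the highest between any control and any overexpression library, while control 1 correlated best with overexpression 2 (0.190). With the replicate block 7 members rose, Nlrc5 being added (edgeR adjusted p = 0.016).

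The list counts that follow stand beside the shares of all genes called in the same fit, which for limma-voom were 18.2% risen and 19.8% fallen and for library size only 4.82% and 6.76%. For the peptide supply genes limma-voom called 7 risen and 1 fallen, the 0.01 threshold left 2 risen, left-out libraries 2 to 5 risen and 0 to 1 fallen, and leaving out control 1 with overexpression 3 gave 1 fallen. For the folding genes limma-voom called 3 risen and 1 fallen, and left-out libraries 1 to 2 risen (2 without control 1 and overexpression 3). For the regulators the 0.01 threshold left 4 risen and 0 fallen, left-out libraries 4 to 9 risen and 0 to 1 fallen, and 2 fell with limma-voom or library size only. Risen regulators numbered 12 with limma-voom and 11 without control 1 and overexpression 3. For the other class I-like chains the 0.01 threshold left 2 risen, left-out libraries 2 to 8 risen and 0 to 1 fallen, limma-voom called 12 risen, and 1 fell with limma-voom, with all genes kept, or without control 1 and overexpression 3. Causes of these shifts were not tested. Fits with libraries left out also rested on fewer libraries, and that part was not tested either. With the longest transcript as the length, group differences in log2 ratios of single genes do not change, and that of B2m to the summed heavy chains went from 0.47 to 0.40 (exact permutation p = 0.3 and 0.4). Levels did move. The mean with overexpression went from 0.579 to 0.739 for H2-K1 to H2-D1 and from 2.26 to 1.67 for B2m to the heavy chains. It went from 2.08 to 2.65 for Tap1 to Tap2 and from 0.632 to 0.666 for Calr to Tapbp. The other ratios moved by less than the SD among overexpression libraries.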
